A study of Mus musculus with 5 samples.

Results

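Of the 48571 TEAD peaks called in 3T9MycER fibroblasts, 24984 had a pileup under 50 and shared no base pair with any YAP, Myc or RNA polymerase II (RNAPol2) peak. These weaker TEAD-only peaks without polymerase made up 51.4% of the TEAD list (95% interval 51.0 to 51.9). They were 64.1% of the 38970 TEAD peaks under the same pileup and 92.6% of the 26994 TEAD peaks that overlapped none of the 3 other lists. The pileup is the number of extended ChIP tags stacked over the peak's summit. The members were chosen by their measured TEAD pileup and by the absence of called overlaps, so that neither is a finding about them.

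Peaks came from ChIP-seq, the sequencing of DNA fragments precipitated with an antibody, in 3T9 cells. These are immortalized mouse embryonic fibroblasts, with 3T9MycER as the genotype in the labels and named 3T9MycER;YAP in the study, where they are described as starved of serum and confluent. All 4 ChIP samples carried MycER, a constitutively made fusion of Myc that was switched on with 400 nM 4-hydroxytamoxifen (OHT), and an activated YAP mutant introduced with a virus and switched on with 2 µg/ml doxycycline. TEAD, YAP, Myc and RNAPol2 were each precipitated in 1 sample, after fixation with 1% formaldehyde, which for YAP followed another crosslinker. An input sample, whose title names no treatment, had no peak list used here, and no peak list came from cells without OHT and doxycycline. All samples were of 1 cell line, and peak positions alone hold no expression values with which to check the fibroblast label against marker genes.

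TEAD proteins are DNA-binding transcription factors with little activity of their own. They recruit coactivators, above all YAP and its relative TAZ, which the Hippo kinases keep out of the nucleus in crowded cells. In many cell types most TEAD binding lies at enhancers far from promoters, often beside AP-1 factors, while Myc and polymerase gather at active promoters. A TEAD peak that overlaps none of the other lists is a place where TEAD was called and YAP, Myc and polymerase were not. TAZ was not analysed here.

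The TEAD library held 31770727 tags, the YAP library 29528304, the Myc library 20441605 and the RNAPol2 library 38345189, all set against the same control library of 60189064 tags. The lists held 10293 YAP, 14354 Myc and 49650 RNAPol2 peaks. Each antibody had a single library, so that the replicate error is unknown and no test or p-value is given. Intervals of shares (Wilson) and of medians (binomial order statistics) are 95% intervals for counting error only. They treat peaks as independent, although neighbouring peaks share chromatin and library. A missing peak means that none was called at this depth. The lowest pileup of any called peak was 14 for YAP, 14 for Myc and 17 for RNAPol2, and nothing below these levels was called. Calls were made against the local background, so that a call needs a higher pileup where the control level is higher.

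The members were small, narrow peaks. Their pileup ran from 14 to 49 with a median of 25, and the middle 50% lay between 21 and 32, beside a median of 29 over all TEAD peaks. Their median fold enrichment, the pileup over the local background of the control, was 6.68 (quartiles 5.68 and 8.38) beside 7.64 over the list. The median −log10 q-value was 10.61 and the lowest 2.94. Widths had a median of 280 bp and reached 1643 bp, beside a median of 345 bp for all TEAD peaks. These values follow from the pileup limit and are given as a description. The control level under the members was a median of 1.09 times its lowest value in the list, and for 46.0% of them it lay within 5% of that floor, beside 43.0% of all TEAD peaks.

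The limit of 50 fell in a continuous range of heights. Just inside it, 29 members were tied at the highest pileup, fold enrichment and p-value. The first 3 of these in genome order stood at chr1:57395955-57396350, chr1:91681207-91681658 and chr11:31477092-31477448 in the mm9 build. Each of the 29 had a pileup of 49, a fold enrichment of 15.59 and a −log10 q of 37.78. Just outside, 30 peaks were tied, and the first 3, at chr1:12137853-12138300, chr1:195393364-195393848 and chr11:17656082-17656641, overlapped none of the other lists and had a pileup of 50, a fold of 15.91 and a −log10 q of 38.97. The next 2 of the tied members lay at chr11:51957126-51957490 and chr11:55191874-55192302. Their nearest YAP summits were 65.8 kb and 31.5 kb away, and their nearest RNAPol2 summits 8003 and 15496 bp. The genes at these places were not looked up, because the gene table used here is of another genome build.

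TEAD peaks that overlapped nothing else were most frequent among the weakest. In the bands of pileup from 13 to 19 and from 20 to 24, 68.7% (67.5 to 69.9) and 69.0% (68.2 to 69.9) of TEAD peaks were members. In the band from 40 to 49, 2230 of 4458 were (48.6% to 51.5%). The overlap with YAP differed most between the bands, at 1.61% in the weakest and 24.3% in the strongest. The overlap with Myc was 18.6% and 23.8% in the same bands, and that with RNAPol2 29.5% and 34.5%. Above the limit, 20.9% of 9601 TEAD peaks overlapped none of the 3 lists and 64.9% overlapped YAP.

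**Figure D1:**
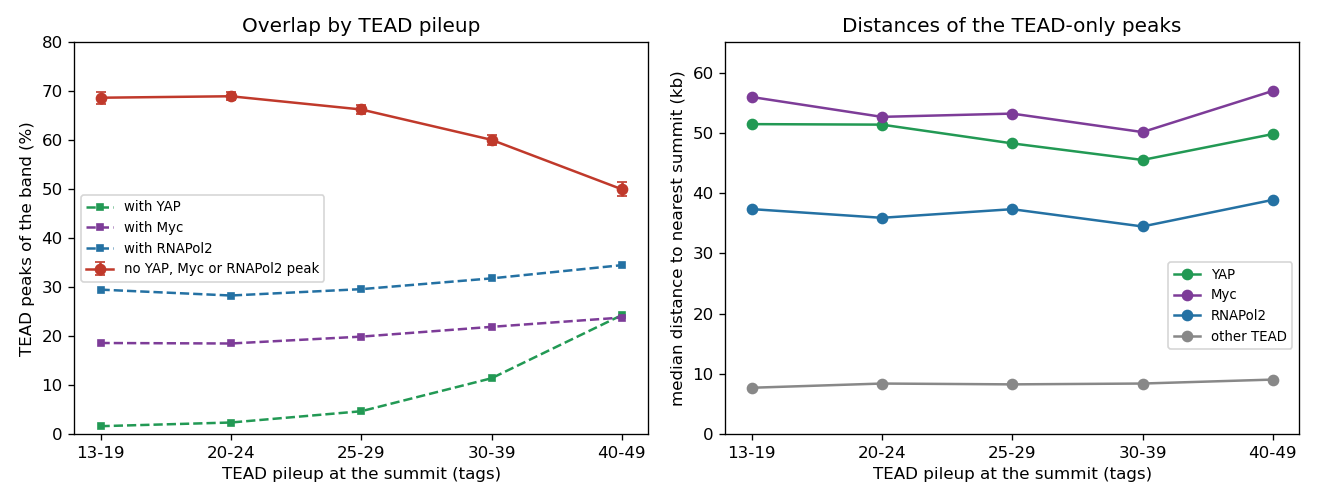
Left, percentage of TEAD peaks in each band of TEAD pileup (horizontal axis, tags) that overlapped no YAP, Myc or RNAPol2 peak (red, with 95% Wilson intervals) or overlapped each of them; right, median distance in kb from the summits of the TEAD-only peaks without RNAPol2 to the nearest YAP, Myc, RNAPol2 and other TEAD summit. The red share is 68.7% in the weakest band and 2230 of 4458 peaks in the strongest, while the median YAP distance stays between 45.5 and 51.4 kb.

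The question posed for these peaks was how far they lie from the other factors. The median distance from a member's summit to the nearest YAP summit was 49.3 kb (48.1 to 50.4), and the middle 50% of members lay between 15.7 and 129 kb from it. For Myc the median was 53.3 kb (51.8 to 54.6), with quartiles of 17.4 and 145 kb. RNAPol2 was nearest, at 36.5 kb (35.4 to 37.5), with quartiles of 10.2 and 118 kb. Over all TEAD peaks, of which many overlap these factors, the medians were 27.9 kb to YAP, 22.3 kb to Myc and 9.96 kb to RNAPol2. A few members on unplaced sequences had no peak to measure to, 2 for YAP and 1 each for Myc and RNAPol2.

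Members within 1 kb of another summit were few, which the rule sets in large part by removing every peak that overlaps another list. A YAP summit lay within 1 kb of 2.45% of them (2.26 to 2.64), a Myc summit within 1 kb of 1.99% and an RNAPol2 summit within 1 kb of 3.77%. Over all TEAD peaks these shares were 21.4%, 25.1% and 33.6%. Counted from the ends of peaks, 5.75% had a peak of some other list within 500 bp, most often RNAPol2 (4.03%). Within 10 kb, 18.2% had a YAP summit (17.7 to 18.7), 16.6% a Myc summit and 24.7% an RNAPol2 summit, while 65.4% had none of them (64.8 to 65.9). Of all TEAD peaks, overlapping ones included, 35.4% had YAP within 10 kb, 39.5% Myc and 24305 of 48571 RNAPol2, while 36.4% had none. All 3 lay within 10 kb of 6.19% of members, beside 17.3% of all TEAD peaks. Within 100 kb, 48.9% of members had all 3 factors and 13.5% had none, beside 60.2% and 7.50% of all TEAD peaks.

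Among members with a single factor within 10 kb, that factor was YAP for 1865 (7.46% of all members), RNAPol2 for 1739 (6.96%) and Myc for 373 (1.49%). The count for Myc is set in part by the lists, since 88.2% of Myc peaks overlapped RNAPol2. The same counts were not made for all TEAD peaks. The nearest summit of the 3 lists was RNAPol2 for 40.8% of members, YAP for 39.1% and Myc for 20.3%, with ties counted under each. The lists differ in length, from 10293 to 49650 peaks, and more peaks bring the nearest one closer.

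With lists cut to the same length, the 10293 peaks of highest −log10 q in each, the order of the distances was another one. YAP was then the nearest, at 49.3 kb, Myc stood at 78.0 kb (76.0 to 79.7) and RNAPol2 at 94.8 kb (92.6 to 97.3). With the same members and only the peaks of a −log10 q of at least 10, the lists held 4690 YAP, 10875 Myc and 28202 RNAPol2 peaks. The medians were then 108 kb to YAP, 73.2 kb to Myc and 46.0 kb to RNAPol2. Which factor lay nearest to the members thus depended on how many peaks of it were counted. The weaker TEAD-only peaks that did overlap RNAPol2 had RNAPol2 nearest by their definition. Myc was nearer to them than YAP in all 3 settings, which their definition also sets in part, since most Myc peaks overlapped RNAPol2.

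**Figure D2:**
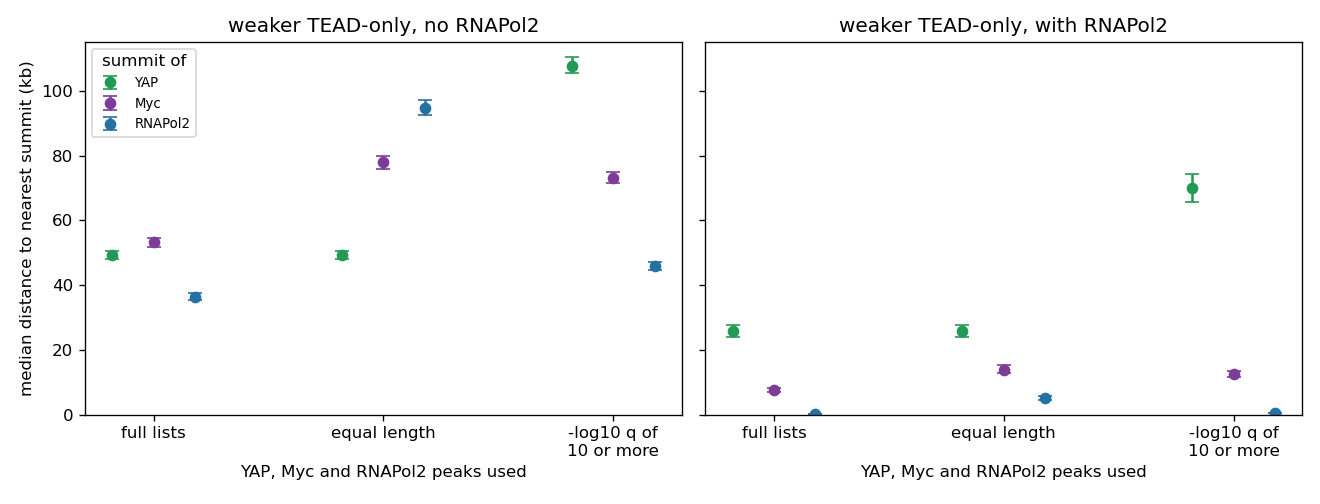
Median distance in kb (vertical axis) from weaker TEAD-only peaks without (left) and with (right) RNAPol2 to the nearest YAP, Myc and RNAPol2 summit, with full lists, lists of 10293 peaks each and peaks of −log10 q of at least 10; bars are 95% order-statistic intervals. On the left YAP is at 49.3, 49.3 and 108 kb and RNAPol2 at 36.5, 94.8 and 46.0 kb, so that their order changes with the lists.

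TEAD-only peaks of the same height that overlap RNAPol2 are the closest match to the members, and 4168 peaks met that description. Their median pileup was also 25 and their median fold enrichment 6.66. They lay nearer to YAP, at a median of 25.7 kb (23.9 to 27.8), so that the members were 1.92 times as far from YAP (1.73 to 2.11, from the limits of both medians). The difference for Myc was larger. The peaks with RNAPol2 had a median of 7.68 kb to the nearest Myc summit (7.07 to 8.24) against 53.3 kb, and 54.7% of them had Myc within 10 kb against 16.6% of the members. Part of both differences is set by the split on RNAPol2 overlap, since 88.2% of Myc peaks and 48.0% of YAP peaks overlapped RNAPol2. Another TEAD summit lay 2.56 kb away in that class and 8.32 kb away for the members. Their control level was 1.17 times the floor, beside 1.09, and its part in these differences was not tested. With lists of equal length the Myc distances were 13.9 and 78.0 kb.

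Among TEAD-only peaks without RNAPol2, height went with little difference in the median distances. Both classes lack every peak that overlaps another list, so that the comparison does not cover those. The 2010 stronger TEAD-only peaks without RNAPol2, with a median pileup of 59, had medians of 47.6 kb to YAP (44.2 to 52.1), 49.4 kb to Myc (45.3 to 54.7) and 36.3 kb to RNAPol2 (32.2 to 40.1). Each of these intervals holds the members' median. The share with no other factor within 10 kb was 66.3% (64.2 to 68.3), beside 65.4% of members. Close to the other factors the classes did differ, since 3.28% of the stronger peaks had one of the 3 summits within 1 kb (2.59 to 4.16) against 6.13% of members (5.84 to 6.44). Their median width was 463 bp beside 280 bp and their control level 1.27 times the floor beside 1.09, and the part of either in this difference was not tested. Within the members, the median distance to YAP was 51.4 kb in the weakest band of pileup and 49.8 kb in the strongest, and to RNAPol2 37.3 and 38.9 kb. The share with YAP within 10 kb was between 17.8% and 18.9% in every band.

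TEAD peaks with YAP and without Myc or RNAPol2 numbered 4065, and lay at medians of 56.8 kb from Myc (53.2 to 60.2) and 42.0 kb from RNAPol2 (38.8 to 44.9). The first interval holds the members' 53.3 kb, and the second lies above the members' 36.5 kb. Of these peaks, 1495 had a pileup under 50, with a median of 37. They lay 50.6 kb from Myc (45.4 to 57.4) and 37.3 kb from RNAPol2 (32.9 to 41.9), and both intervals hold the members' values. Their nearest other TEAD summit was 7.18 kb away (6.54 to 8.09), which was nearer than the 8.32 kb of the members (8.15 to 8.51).

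**Figure D3:**
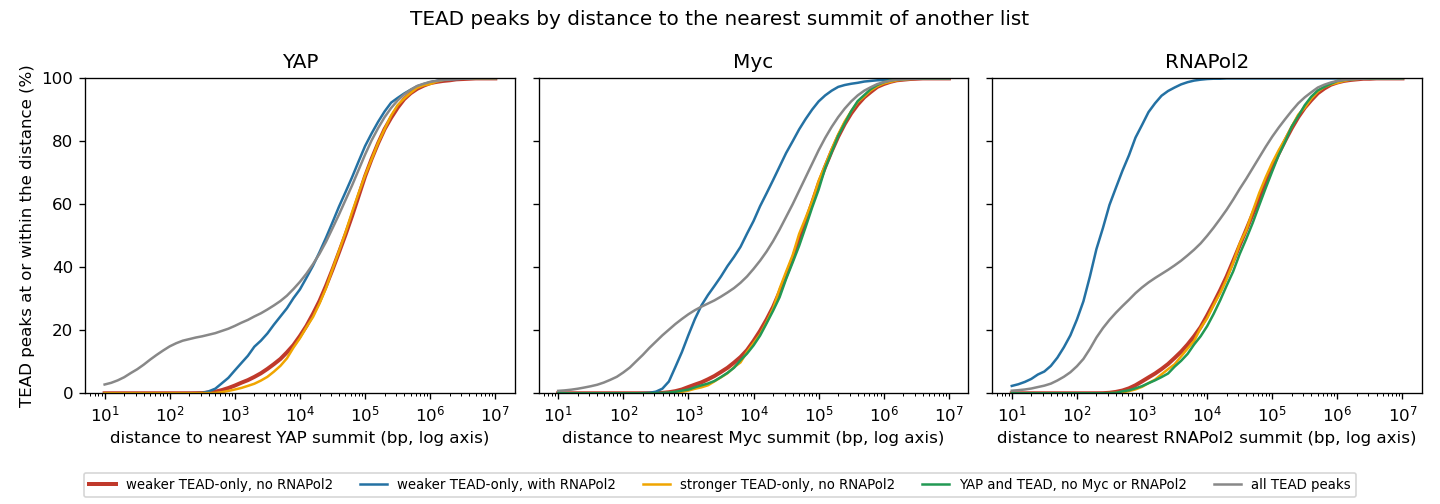
Percentage of TEAD peaks (vertical axis) whose summit lies at or within a given distance (horizontal log axis, bp) of the nearest YAP, Myc and RNAPol2 summit, for the weaker TEAD-only peaks without RNAPol2 (red), 3 other classes and all TEAD peaks; the YAP and TEAD class is left out of the YAP panel. The red curve runs with the stronger TEAD-only peaks and, at 10 kb, stands at 18.2%, 16.6% and 24.7%, below the peaks with RNAPol2.

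The heights of members differed little with their distance from the other factors. The rule narrows this in advance, since it keeps pileups under 50 and removes every peak that overlaps another list. Over all TEAD peaks, overlap with YAP was more frequent at greater heights, as given above. Median pileup was 23 for the 611 members within 1 kb of a YAP summit and between 25 and 26 in every class of distance beyond. The same was seen for Myc and for RNAPol2, with medians of 23 within 1 kb and 25 to 26 beyond. Fold enrichment was 5.93 within 1 kb of YAP and 7.32 beyond 1 Mb, and the control level, by which it is divided, was 1.18 and 1.00 times the floor in the same classes. Within 1 kb of YAP the median distance to RNAPol2 was 11.2 kb and to Myc 27.6 kb, beside 36.5 and 53.3 kb over all members. At 1 to 10 kb from YAP these medians were 8.71 and 20.2 kb, and beyond 1 Mb 329 and 634 kb. Members within 1 kb of Myc had a median of 0.908 kb to RNAPol2 and 18.6 kb to YAP.

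The 3 members nearest to a YAP summit show what the overlap rule separates. At chr15:48964549-48964735 a TEAD peak of pileup 19 and fold 5.95 ended 20 bp before a YAP peak of pileup 19 and fold 5.87, with the summits 206 bp apart. At chr2:131523936-131524140 the TEAD pileup was 21 and that of the YAP peak 23, with 45 bp between the peaks and 211 bp between the summits. At chr19:5072665-5072879 the values were 24 and 19, with the summits 237 bp apart, and Myc and RNAPol2 summits lay 892 and 513 bp away. None of these 3 YAP peaks overlapped any TEAD peak, and the pileups of all 6 peaks lay between 19 and 24, beside a median of 25 in the members and in the YAP list. Requiring that no other peak lie within 500 bp left 23548 members.

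At the other extreme, 100 members had no YAP, Myc or RNAPol2 summit within 1 Mb, or 0.400% (0.329 to 0.487). The same held for 0.398% of the stronger TEAD-only peaks (0.202 to 0.783) and 0.222% of all TEAD peaks (0.184 to 0.268). The most remote stood at chr14:94297729-94298010, with a pileup of 31, a fold enrichment of 9.86 and 5132 kb to RNAPol2, the nearest of the 3. The next 3 lay close together on the same chromosome, at chr14:110412449-110412783, chr14:110399420-110399786 and chr14:110273578-110273787. Their pileups were 23, 28 and 18, and their nearest summit of another factor was 3976 to 4115 kb away. The fifth, at chr6:76704821-76705195, had a pileup of 32 and lay 3475 kb from RNAPol2.

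Members had each other as nearest TEAD peak somewhat more frequently than their share of the list, which the rule sets in part. It selects by overlap with the other lists, and neighbouring TEAD peaks share the local density of those lists. In 1 Mb windows without RNAPol2 peaks 80.5% of TEAD peaks were members, and in windows with over 60 the share was 34.5%. The nearest other TEAD peak was itself a member for 60.2% of them (59.6 to 60.8), while members are 51.4% of the TEAD list. Over all TEAD peaks, members included, the nearest was a member for 49.9%. For the weaker TEAD-only peaks with RNAPol2 the nearest TEAD peak was a member in 25.4% of cases (24.1 to 26.8). A TEAD peak with YAP was the nearest for 18.4% of members, close to its 18.7% of the list. A TEAD peak with Myc and without YAP was the nearest for 10.8% (10.5 to 11.2), below its 16.1% of the list.

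Clusters were small. When all TEAD summits within 10 kb of the next were joined, 45.5% of members stood alone (44.9 to 46.2), and 22.2% were in groups made of members only. Groups with a YAP-bound TEAD peak held 19.9% of members (19.4 to 20.4), those with a Myc-bound one 15.6% and those with a TEAD peak at RNAPol2 20.1%. Joining members alone gave 19399 groups, of which 15364 held 1 member and 38 held between 6 and 10. The largest, of 10 members each, lay at chr15:43507500-43528851 and chr8:73494510-73521173. In the first, pileups ran from 18 to 38 over 21.0 kb, and in the second from 17 to 43 over 26.4 kb. The next, of 9 members, lay at chr15:41878616-41910387, with pileups from 21 to 35. Each of these 3 groups spanned exactly 1 YAP peak and no Myc or RNAPol2 peak. The control level was 1.56, 1.04 and 1.68 times the floor in the 3 groups, in this order, and its part in the clustering was not tested.

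The peaks of the other lists nearest to the members were not a cross-section of those lists. Peaks nearest to other classes of TEAD peaks were not examined, so that these differences may not be particular to the members. The nearest RNAPol2 peak overlapped TEAD for 63.0% of members and Myc for 47.9%, while 28.1% and 23.6% of the whole RNAPol2 list did. Its median fold enrichment was 7.29, beside 5.57. Counted once each and within 10 kb of a member, 58.1% of 5105 RNAPol2 peaks overlapped TEAD and 44.6% Myc. The nearest RNAPol2 peak overlapped YAP for 27.8% of members, beside 9.15% of the list. The nearest YAP peak overlapped TEAD for 93.0% of members, beside 91.6% of the YAP list. It overlapped RNAPol2 for 39.9% and Myc for 25.1%, beside 48.0% and 30.9% of the list, and its median fold enrichment was 6.57 beside 6.49. The nearest Myc peak overlapped RNAPol2 for 79.3% of members (78.8 to 79.8), beside 88.2% of the Myc list. It overlapped YAP for 27.6% and TEAD for 72.2%, beside 21.0% and 69.4%. The nearest peaks of YAP and of Myc thus held RNAPol2 less frequently than their lists, and TEAD more frequently.

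On a coarser scale, members were found where other peaks were found, and formed a smaller part of the TEAD peaks there. The placed chromosomes were divided into 2647 windows of 1 Mb. Windows with over 60 RNAPol2 peaks held a median of 15 members (quartiles 10 and 20), and windows with 1 to 5 held 6.5 (2 and 13). Of the TEAD peaks in these windows, 34.5% and 69.5% were members, and in the 689 windows without any RNAPol2 peak 80.5% were. Part of that difference is set by the rule, since more RNAPol2 peaks leave fewer TEAD peaks without one. Over the windows, the number of members had a Spearman's rho of 0.81 with the number of YAP peaks, 0.80 with that of other TEAD peaks, 0.67 with Myc and 0.64 with RNAPol2 peaks. Pearson's r was 0.70, 0.63, 0.43 and 0.41. Windows are not independent, and they share the libraries, the control and the mappable length.

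**Figure D4:**
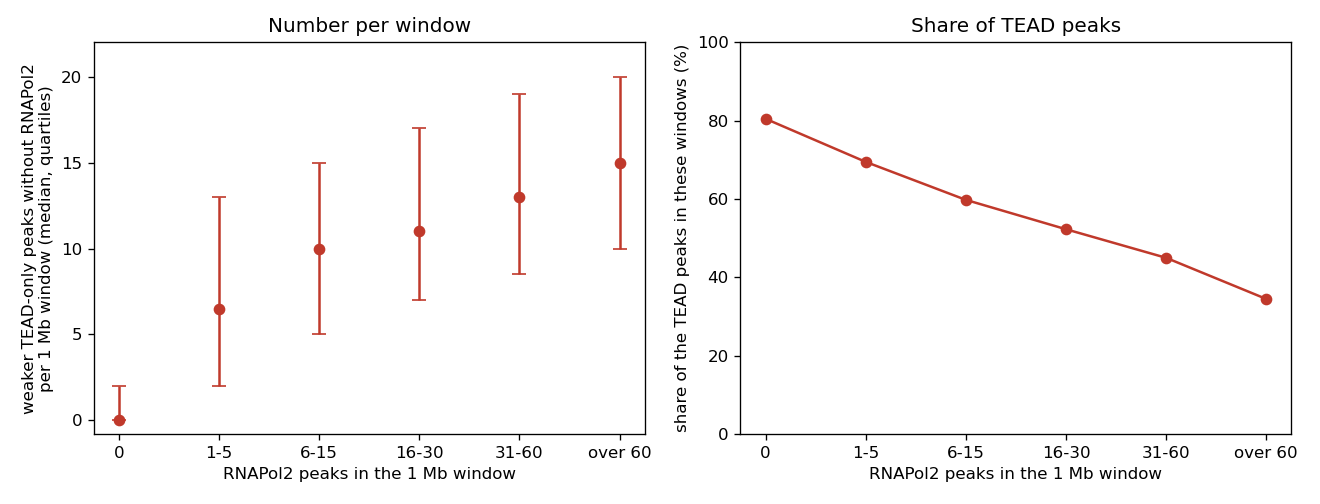
Left, number of weaker TEAD-only peaks without RNAPol2 per 1 Mb window (points medians, bars quartiles) and right, their share of the TEAD peaks in those windows (%), by the number of RNAPol2 peaks in the window (horizontal axis). The median number is 0 in windows without RNAPol2 peaks and 15 in windows with over 60, while the share is 80.5% and 34.5%.

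The window with the most members was chr15:43000001-44000000, with 56 members among 91 TEAD peaks, 21 YAP, 7 Myc and 53 RNAPol2 peaks. Member pileups there ran from 18 to 49 with a median of 28. The control level at these members was 1.65 times the floor, and its part in the count was not tested.

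By chromosome, members were between 43.1% of the TEAD peaks on chromosome 11 (41.5 to 44.8) and 62.0% on chromosome 12 (59.1 to 64.7). The share was lower on chromosomes with more RNAPol2 peaks per Mb, with a Spearman's rho of -0.92 and a Pearson's r of -0.86 over 20 chromosomes, a description that the rule sets in part. Chromosome 15 held the most members per Mb, with 7.89% of all members, and chromosome X the fewest, 3.76 per Mb. On chromosome 15 the nearest YAP summit was at a median of 17.0 kb, nearer than RNAPol2 (32.1 kb) or Myc (36.0 kb), which was not so on any other placed chromosome. The control level at members was 1.54 times the floor on chromosome 15, 1.40 on chromosome 10 and 1.34 on chromosome 19, and between 1.00 and 1.18 on the rest. The median YAP distance was 74.8 kb on chromosome 10 and 24.5 kb on chromosome 19. The part of the control level in the YAP distance was not tested. Without chromosomes 10, 15 and 19, 20889 members were left, with a median YAP distance of 55.1 kb and a ratio of 1.82 to the peaks with RNAPol2.

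**Figure D5:**
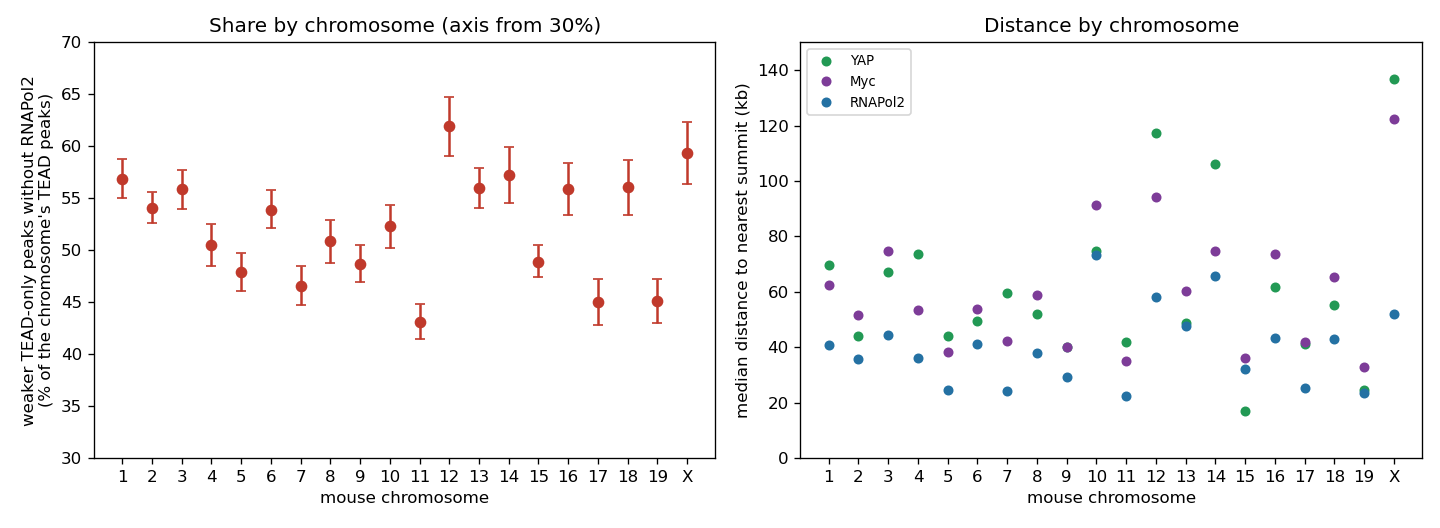
Left, weaker TEAD-only peaks without RNAPol2 as a percentage of the TEAD peaks of each mouse chromosome, with 95% Wilson intervals, on an axis that starts at 30%; right, their median distance in kb to the nearest YAP, Myc and RNAPol2 summit. The share runs from 43.1% on chromosome 11 to 62.0% on chromosome 12, and on chromosome 15 the YAP distance, 17.0 kb, is below the other distances.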

How the data were processed

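ChIP-seq peak lists of 4 samples, 1 per antibody, were used, and titles gave the groups. MACS2 2.0.9, BWA 0.6.2, SAMtools and mm9 appear in the submitters' processing notes. The authors, per the file headers, made peak calls for each sample alone at a p-value cutoff of 1e-05, with at most 2 tags of 51 bp per position, against local background over 1000 and 10000 bp of 1 control library. The deposited values are the pileup signal, the fold enrichment (a ratio to that background), −log10 p-values and −log10 q-values, and 1-based positions.

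Peaks overlapped when they shared at least 1 bp. Distances run from summit to summit. Control level is pileup over fold enrichment, and its floor the lowest value in the TEAD list. Members, named regions and alternatives were chosen with earlier results of these data known. Named regions are the extremes of fold enrichment, pileup and distance, and the largest groups and windows. Without a genome or gene table in mm9, no gene, motif or sequence was analysed here. Python 3.11.15, numpy 2.4.6, pandas 2.3.3, scipy 1.17.1 and matplotlib 3.10.9 were used. The overlap and distance routines were tested on TEAD peaks sampled from these data, with simulated intervals planted at known offsets from their summits.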

Additional observations from a re-analysis of the deposited data

How the results depend on the processing

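The number of members, 24984, ran under the alternatives tried from 20889 without chromosomes 10, 15 and 19 to 27635 with other lists at a −log10 q of at least 10. Each alternative removes or adds members by construction, so that this range is a description. The median distance to YAP, 49330 bp, was 104147 bp with that stricter cutoff, which here also chose the members, 51983 bp with no other peak within 500 bp and 55090 bp without the 3 chromosomes. For Myc, 53337 bp became 69738, 56932 and 54909 bp in the same settings, 50824 bp with overlap of 50% of the shorter peak and 77975 bp with lists of equal length. For RNAPol2, 36464 bp became 42970 bp with the stricter cutoff, 40131 bp with the 500 bp gap, 34229 bp with 50% overlap and 94798 bp with equal lengths. The distance to another TEAD summit, 8323 bp, was 8608 bp with TEAD peaks of −log10 q of at least 5, 8035 bp with the stricter cutoff, 9061 bp with the gap, 8142 bp with 50% overlap, 8824 bp without the 3 chromosomes, 9100 bp with members within 1 kb counted as 1 and 7959 bp between peak ends. The ratio of YAP distances, 1.92, was 1.40 with the stricter cutoff and between 1.78 and 1.95 otherwise. Fewer peaks to measure to lengthen a distance by construction, and the cause of the other shifts was not tested. No paired analysis was possible because each antibody had 1 sample. Depth limits which YAP, Myc and RNAPol2 peaks were called, so that members are peaks without a call and not places shown to be free of these factors.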

Other observations

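Some members filled stretches where nothing else was called, and these windows were chosen after their values were seen. Of the 2647 windows of 1 Mb, 537 held no YAP, Myc or RNAPol2 peak, and 162 of those held 423 members. In such windows the rule makes almost every TEAD peak under the pileup limit a member. Of all TEAD peaks that overlapped no other list, 92.6% were members. The window chr2:107000001-108000000 had 23 TEAD peaks, and all 23 were members. Their pileups ran from 17 to 46 with a median of 22, their fold enrichments from 4.21 to 14.64, and the lowest −log10 q was 5.19. The median spacing to the next TEAD summit was 10505 bp, and the control level was at its floor (1.00). YAP summits lay 10.3 to 673 kb away and RNAPol2 summits 202 to 754 kb. The window chr8:6000001-7000000 held 17 members among 20 TEAD peaks, with pileups from 20 to 48, a median of 29 and a control level of 1.18 times the floor. There the nearest RNAPol2 summit was 1265 to 1878 kb away.

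The 100 members with no other factor within 1 Mb were spread over many chromosomes, with 26 on chromosome 12, 15 on chromosome 2, 11 on chromosome X and 8 on chromosome 14. Chromosome 12 held 2.84% of all members. On chromosome X the median distance of members was 137 kb to YAP and 122 kb to Myc, and 51.9 kb to RNAPol2. Chromosome 10 had the longest median distance to RNAPol2 of all placed chromosomes, 73.2 kb.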
